A study of Homo sapiens with 24 samples.

Results

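Y, vault and SNAR RNAs are short noncoding transcripts made by RNA polymerase III. The 10 described here by name are RNY1, RNY3, RNY4, RNY5, VTRNA1-1, VTRNA1-3, SNAR-A11, SNAR-C3, SNAR-G1 and SNAR-I, and 8 of these 10 had an entry among the 26249 gene entries of each deposited table. RNY1 and RNY3 were not analysed here. The names were chosen with their values in these libraries in view, so their levels are given as a description, library by library, with no test. Established lines of human multiple myeloma, H929 and MM1S, gave 24 libraries in 8 groups of 3: YKL 24 h, DMSO 24 h, YKL 6 h and DMSO 6 h in each line. YKL is YKL-5-124, a compound directed at the kinase CDK7 by the series title, and DMSO is the vehicle. The labels give 83 nM for H929 and 98 nM for MM1S, also on the DMSO groups, so line and dose cannot be told apart. The labels do not say whether replicates were separate cultures, so spreads and p-values measure differences between these libraries only, which may be technical.

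Y RNAs fold into a stem and loop that is bound by the Ro60 protein and, at the uridine-rich 3′ end, by the La protein, and vertebrate Y RNAs are also known to act in the start of DNA replication. Vault RNAs were found in the vault particle, a large hollow ribonucleoprotein whose shell is built of the major vault protein, and most vault RNA lies outside it. SNAR RNAs are known from testis and from transformed cell lines. Vault genes carry promoter elements inside the transcribed region, the A box and the B box, which bind TFIIIC, whereas Y RNA genes are driven from upstream elements bound by SNAPc. CDK7 is best known as a kinase of RNA polymerase II, the enzyme that makes messenger RNA.

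The vault RNAs are shown first because closely similar family members behaved unlike each other in these libraries. Their sequences are from GENCODE release 29 on GRCh38, which is not the build of the deposited values (hg19), and capitals mark the A box, searched by its core letters GCNNAGNGG, and the B box, searched as GTTCGANNC. VTRNA1-1 lies at chr5:140711275-140711373 on the plus strand, VTRNA1-2 at chr5:140718925-140719013 and VTRNA1-3 at chr5:140726158-140726246, also on the plus strand, as neighbours in that order. VTRNA2-1 lies at chr5:136080470-136080597 on the minus strand.
VTRNA1-1: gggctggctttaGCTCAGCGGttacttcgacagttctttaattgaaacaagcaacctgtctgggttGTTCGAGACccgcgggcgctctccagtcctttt
VTRNA1-2: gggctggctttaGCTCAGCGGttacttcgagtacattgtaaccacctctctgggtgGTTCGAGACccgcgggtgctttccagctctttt
VTRNA1-3: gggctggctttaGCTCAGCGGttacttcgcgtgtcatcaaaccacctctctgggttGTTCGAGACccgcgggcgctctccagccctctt
VTRNA2-1: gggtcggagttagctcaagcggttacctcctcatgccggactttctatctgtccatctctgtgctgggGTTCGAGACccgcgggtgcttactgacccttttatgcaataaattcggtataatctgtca

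VTRNA1-3 was identical to VTRNA1-1 at 82.8% and to VTRNA1-2 at 87.8% of aligned positions, and each pair shared at least its first 29 bases. VTRNA1-1 and VTRNA1-2 were identical at 81.8%. Both boxes were present in VTRNA1-1, VTRNA1-2 and VTRNA1-3, with the A box core starting at base 13 in each. VTRNA2-1, whose RNA is known as an inhibitor of the kinase PKR and is not part of the vault particle, held the B box and no exact match to the A box core. At the matching place it has a near match to that core with an extra base, which a search with fixed spacing could not find. Other spacings were not searched, so the absence of an A box is not shown. Of the 4844 GENCODE transcripts of 80 to 130 bases, 2.15% held the A box core, 0.227% the B box and 0.0619% both, and on the opposite strand the shares were 8.55%, 0.0619% and 0.0206%. The Y RNA gene RNY4, 1 of 2 Y RNAs with an entry, lies at chr7:148963315-148963410 on the plus strand of GRCh38 and held neither box. It is shown because it and RNY5, its neighbour on chromosome 7, had unlike values.
RNY4: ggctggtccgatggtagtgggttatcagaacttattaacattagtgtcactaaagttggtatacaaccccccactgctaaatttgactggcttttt

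Libraries were made by QuantSeq, which reads the 3′ ends of polyadenylated RNA, and the longest run of A was 3 bases or fewer in each of these 5 sequences. Why non-polyadenylated RNAs of this kind entered the libraries was not tested, so an FPKM here is the amount read by this method and need not follow the amount in the cell. Division by gene length also makes FPKM, a fragment count set against gene length and a scale of the library, large for short genes. No value in the tables was 0. Entries without signal held about 0.1 FPKM, called the floor below, and the 28 Y, vault and SNAR entries had an empty range between 0.163 FPKM, the highest value at the floor, and 12.9 FPKM, the lowest above it. A library therefore counted as having an RNA when it was at or above 1 FPKM. Thresholds of 0.2 or 5 FPKM lie in the same empty range and so gave the same libraries for the 8 RNAs. Groups were said to be apart when all 3 libraries of one lay above all 3 of the other, with values under 0.2 FPKM taken as equal. No ratio is given against a group with a library at the floor. Because SNAR genes of one subgroup are near-identical copies and Y RNAs have many pseudogenes, reads may have been split between entries.

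The general level of the genes on the deposited scale moved with the groups and touches every level below. Median-of-ratios factors were 0.664 to 1.29 in H929 YKL 24 h and 1.62 to 1.92 in H929 DMSO 24 h libraries, and 0.361 to 0.800 in the MM1S libraries of 24 h. Values divided by these factors are called rescaled. As deposited, the libraries were level on the spike-in transcripts, whose median deviation was -0.0422 to 0.0897 on the log2 scale in all 24. Rescaling thus takes out a general shift of the genes relative to the spike-ins. On the deposited scale, less RNA per cell and fewer cells cannot be told apart. The spike-in transcripts were uneven in MM1S YKL 6 h replicate 2 and MM1S DMSO 24 h replicate 1, with an SD of 0.964 and 0.580 on the log2 scale. Plasma cell genes other than CD38 were present in both lines, with SDC1, which encodes CD138, at a median of 612 FPKM in H929 and 405 FPKM in MM1S. CD38 stood at a median of 12.3 FPKM in H929 and 0.918 FPKM in MM1S, where it ranged from 0.194 to 2.64 FPKM. FGFR3, an oncogene of H929, ranged from 23.0 to 93.6 FPKM in H929 and reached 0.689 FPKM in MM1S. Of the markers of other cells, CD3D, CD14, LYZ and EPCAM stayed at or under 0.648 FPKM in all 24 libraries, and CD3E and COL1A1 reached 3.76 and 1.83 FPKM. MAF, the marker of MM1S, was present in both lines, at a median of 18.1 FPKM in H929 and 29.99 FPKM in MM1S.

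RNY5 had values above the floor in H929 cells treated with YKL for 24 h and in no other group. It stood at 1635, 834 and 2511 FPKM in H929 YKL 24 h libraries, against 0.109 to 0.110 FPKM in H929 DMSO 24 h libraries. In the other 21 libraries of the series RNY5 ranged from 0.0531 to 0.145 FPKM, which is the floor. Among the 26249 gene entries, 5 were at or above 1 FPKM in those 3 libraries and in none of the other 21 (0.019%), namely RNY5, B3GALT4, LINC01233, LMF1 and RTN1. RNY4, which lies beside RNY5 in the Y RNA cluster, was at the floor in all 24 libraries, between 0.0575 and 0.163 FPKM. RNY4 was the 1 of the 8 RNAs that did not pass the filter on low values.

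VTRNA1-3, the vault RNA whose gene is the last of the row of neighbours on chromosome 5, was listed above the floor in 5 libraries, all of H929. It stood at 89.8, 83.1 and 256 FPKM in H929 YKL 24 h libraries and at the floor in the 3 H929 DMSO 24 h libraries. Single libraries at 6 h were as high, with 118 FPKM in H929 YKL 6 h replicate 2 and 189 FPKM in H929 DMSO 6 h replicate 1. The 24 h groups of H929 did not overlap, but values of this size also occurred without YKL. All 12 MM1S libraries had VTRNA1-3 at the floor.

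VTRNA1-1, a vault RNA known for binding the autophagy receptor p62, was present in all 12 H929 libraries and in 7 of 12 MM1S libraries. In H929 it stood at 231, 435 and 412 FPKM in YKL 24 h libraries, against 560.0, 318 and 242 FPKM in DMSO 24 h libraries. At 6 h the H929 values were 188, 335 and 733 FPKM with YKL and 279.9, 157 and 496 FPKM with DMSO. Groups overlapped at both times, with ratios of means of 0.963 at 24 h and 1.35 at 6 h, and of 1.85 and 1.45 on the rescaled values. In MM1S, VTRNA1-1 stood at 34.0, 31.7 and 58.6 FPKM in YKL 24 h libraries, and at 118 FPKM, 23.2 FPKM and the floor in DMSO 24 h libraries. At 6 h in MM1S it was above the floor in 1 of 3 YKL libraries (82.1 FPKM) and 1 of 3 DMSO libraries (36.5 FPKM). As deposited, each H929 group lay above the MM1S group of the same treatment and time. After rescaling the DMSO 24 h groups overlapped, with 149.7 in the lowest H929 library and 268 in the highest MM1S library.

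SNAR-A11, an entry of the SNAR-A subgroup on chromosome 19, was above the floor in 4 libraries. It stood at 31.2, 27.8 and 25.7 FPKM in H929 YKL 24 h libraries and at the floor in all 3 H929 DMSO 24 h libraries. The 3 YKL values lay close together as deposited but less so rescaled, at 29.1, 41.8 and 19.9. The fourth library, H929 YKL 6 h replicate 1, was higher, at 63.7 FPKM. No MM1S library and no DMSO library had SNAR-A11 above the floor.

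SNAR-C3, of the SNAR-C subgroup in the same chromosome 19 cluster, reached the highest FPKM of the 8 RNAs. In H929 it stood at 332, 1102 and 550.3 FPKM in YKL 24 h libraries, against 253, 616 and 416 FPKM in DMSO 24 h libraries. At 6 h the values were 3601, 3167 and 3780.2 FPKM with YKL and 4064, 448 and 2942 FPKM with DMSO. YKL and DMSO overlapped at each time, with ratios of means of 1.54 at 24 h and 1.41 at 6 h (3.30 and 1.56 rescaled), and 1 low library, DMSO 6 h replicate 2, spread the DMSO 6 h group. The H929 YKL libraries of 24 h lay below those of 6 h, with a ratio of means of 0.188 (0.360 rescaled, groups again apart). In the DMSO libraries of H929 the corresponding ratio was 0.172 (0.170 rescaled), but the groups overlapped through that library. In MM1S, SNAR-C3 was above the floor in 5 of 12 libraries, with 36.0 and 48.6 FPKM in 2 YKL 24 h libraries, none of the DMSO 24 h libraries, 74.7 FPKM in 1 YKL 6 h library, and 22.8 and 59.6 FPKM in 2 DMSO 6 h libraries.

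SNAR-G1, whose gene lies beside the chorionic gonadotropin gene CGB1 on chromosome 19, was the RNA found in most libraries, 23 of 24. It stood at 646, 428 and 568 FPKM in H929 YKL 24 h libraries, against 568, 1143 and 1176 FPKM in H929 DMSO 24 h libraries. At 6 h the H929 values were 780.4, 1237 and 1189 FPKM with YKL and 1581, 1005 and 1511 FPKM with DMSO. The groups overlapped at each time, and the ratio of means was 0.569 at 24 h and 0.783 at 6 h (1.02 and 0.863 rescaled).

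In MM1S, SNAR-G1 was lower with YKL than with DMSO at each time. At 24 h it stood at the floor, 12.9 and 24.3 FPKM in YKL libraries, against 106, 210.5 and 87.2 FPKM in DMSO libraries. At 6 h it stood at 84.4, 40.5 and 137 FPKM in YKL libraries, against 203, 307 and 309 FPKM in DMSO libraries, a ratio of means of 0.319. The MM1S groups did not overlap at either time as deposited, and leaving out the libraries with uneven spike-ins could not have changed that. After rescaling they were still apart at 24 h, whereas at 6 h the highest YKL library, at 170.3, lay above the lowest DMSO library, at 168, with a ratio of 0.437.

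SNAR-I, whose gene stands apart from the chromosome 19 clusters, on chromosome 3, was the RNA that separated the lines most plainly. It stood at 175, 414 and 755 FPKM in H929 YKL 24 h libraries, against 373, 467 and 622 FPKM in H929 DMSO 24 h libraries. At 6 h it stood at 123, 519.7 and 417 FPKM with YKL and 366, 568 and 562 FPKM with DMSO in H929. YKL and DMSO overlapped at both times, with ratios of means of 0.919 at 24 h and 0.708 at 6 h (1.62 and 0.769 rescaled). In MM1S it was at the floor in all 12 libraries.

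**Figure D1:**
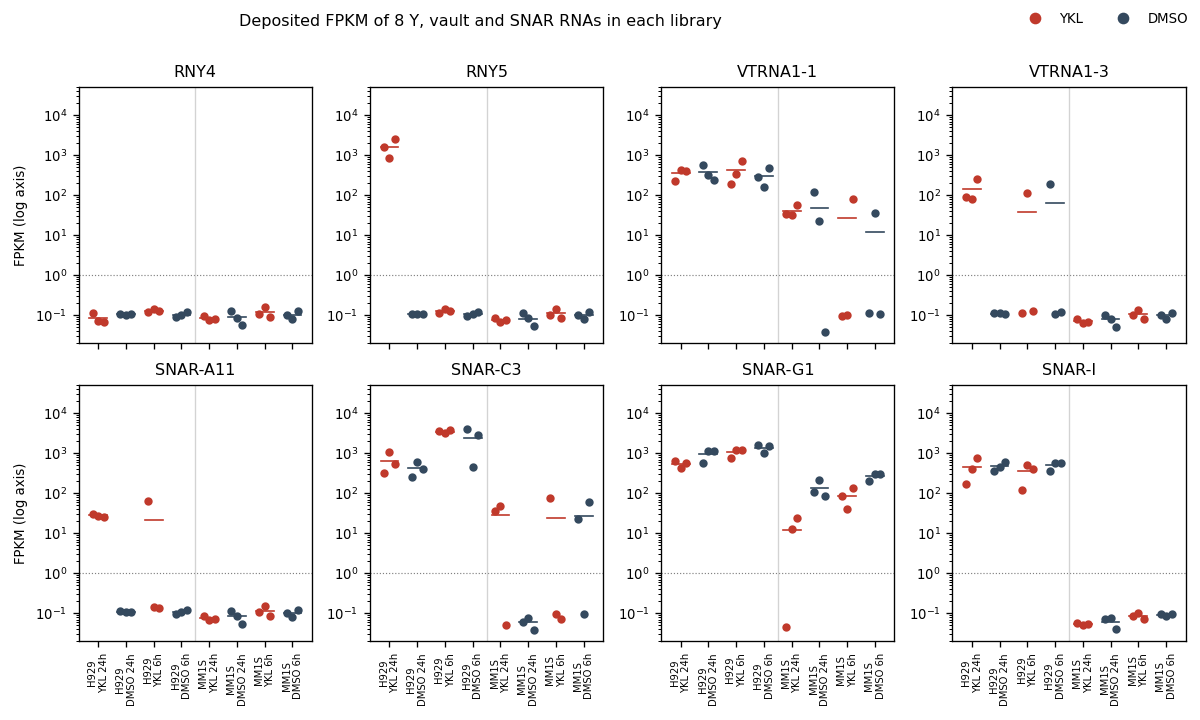
FPKM (log axis) of each of the 8 RNAs in every library, by line, treatment and time, with YKL in red, DMSO in dark blue, a bar at the mean of the 3 libraries and a dotted line at 1 FPKM. RNY5 is above the line in the 3 H929 YKL 24 h libraries only (834 to 2511 FPKM), RNY4 in none, and SNAR-I in all 12 H929 and no MM1S library.

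Counted per library, H929 libraries with YKL for 24 h listed the most of these RNAs. All 3 of them had 7 of the 8 RNAs above the floor, against 4 of 8 in all 3 H929 DMSO 24 h libraries. At 6 h the H929 libraries had 5, 5 and 4 with YKL and 5, 4 and 4 with DMSO. MM1S libraries had 2, 3 and 2 (YKL 24 h), 2, 2 and 1 (DMSO 24 h), 2, 1 and 2 (YKL 6 h) and 2, 2 and 2 (DMSO 6 h). The same libraries counted after rescaling, as the empty range left no room for change. The RNAs were picked with this contrast in view, so nothing is read from these counts. Of the 28 Y, vault and SNAR entries, H929 24 h libraries had 11, 13 and 11 above the floor with YKL and 8, 9 and 8 with DMSO. Of all 26249 gene entries, they had 9334 to 10788 at or above 1 FPKM with YKL and 10577 to 10832 with DMSO.

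**Figure D2:**
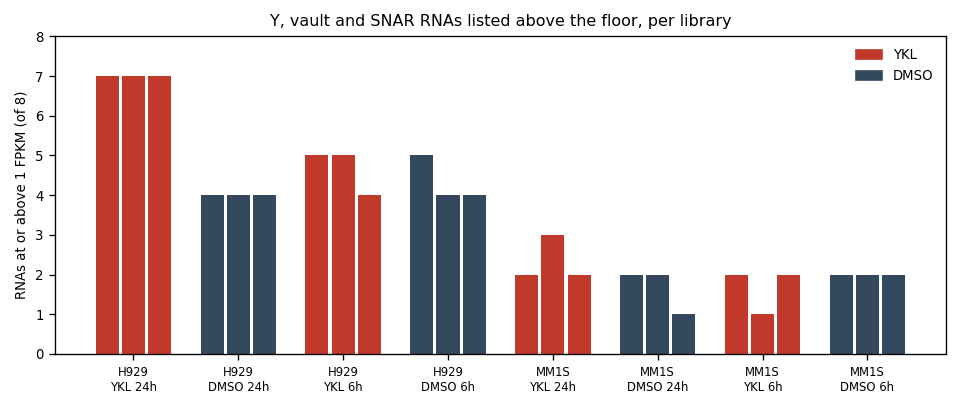
Number of the 8 RNAs at or above 1 FPKM in each library (1 bar per library, replicates 1 to 3 from left to right in a group), YKL in red and DMSO in dark blue. The 3 H929 YKL 24 h libraries reach 7, the 3 H929 DMSO 24 h libraries 4, and no MM1S library more than 3. The RNAs were chosen with these values in view.

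Between YKL and DMSO in H929 at 24 h, 3 of the 8 RNAs were higher with no overlap (RNY5, VTRNA1-3 and SNAR-A11) and 0 lower, where 3.58% and 45.1% of the 12418 genes past the filter did so. At 6 h in H929 no RNA was apart in either direction (background 8.27% higher and 12.5% lower). In MM1S, SNAR-G1 was the 1 RNA lower at 24 h (background 14.2%) and the 1 lower at 6 h (36.7%), and 0 were higher (3.22% at 24 h and 2.85% at 6 h). These counts describe values that chose the RNAs, and nothing is read from them. RNY4, RNY5, VTRNA1-3 and SNAR-A11 were at the floor in all DMSO 24 h libraries of H929, so a lower value could not have been seen for them. Only VTRNA1-1, SNAR-C3, SNAR-G1 and SNAR-I could have been lower there. In MM1S every RNA but SNAR-G1 had at least 1 DMSO library at the floor at each time, so SNAR-G1 alone could have been lower.

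Between the lines, 7 of the 8 RNAs were higher in H929 than in MM1S with YKL at 24 h (background 57.3%) and 4 with DMSO at 24 h (65.9%). At 6 h, 4 were higher with YKL (53.3%) and 4 with DMSO (44.7%). The 4 RNAs higher in H929 in each of these comparisons were VTRNA1-1, SNAR-C3, SNAR-G1 and SNAR-I on the deposited scale. After rescaling the lines overlapped for VTRNA1-1 with DMSO at 24 h. No RNA was higher in MM1S, where the background was 7.55% with YKL and 5.3% with DMSO at 24 h, and 11.3% and 16.4% at 6 h. SNAR-G1 gave a ratio of H929 to MM1S means in 3 of these comparisons, of 7.14 with DMSO at 24 h, 12.2 with YKL at 6 h and 5.00 with DMSO at 6 h (2.22, 6.20 and 3.14 rescaled). For VTRNA1-1 the ratio could be formed with YKL at 24 h, at 8.68 (4.03 rescaled).

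Between the times, SNAR-C3 and SNAR-G1 were lower at 24 h than at 6 h in H929 YKL libraries (2 of 8, background 35.9%), and RNY5 was higher (1 of 8, background 3.28%). After rescaling VTRNA1-3 was also higher at 24 h in H929 YKL libraries. The SNAR-G1 groups overlapped after rescaling, where the ratio of means was 0.863 in place of 0.512. In MM1S YKL libraries SNAR-G1 was lower at 24 h (1 of 8, background 57.9%), and 0 were higher (3.32%). These groups too overlapped after rescaling, with 54.5 in the highest 24 h library and 51.6 in the lowest 6 h library. In the DMSO libraries, 0 RNAs were apart between the times in H929 (background 8.04% higher and 9.15% lower) and 0 in MM1S (0.37% and 51.0%). Only SNAR-G1 had no MM1S library of 6 h at the floor, so in MM1S it alone could have been lower at 24 h. SNAR-I groups overlapped between the times in H929, where its 24 h to 6 h ratio was 1.27 with YKL (2.23 rescaled) and 0.977 with DMSO.

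The other 20 Y, vault and SNAR entries showed the same uneven picture. VTRNA2-1 was above the floor in all 24 libraries. It stood at 1702, 1015 and 1365 FPKM in H929 YKL 24 h libraries, against 1320.2, 1093 and 1281 FPKM in H929 DMSO 24 h libraries. These groups overlapped as deposited, with a ratio of 1.10, and were apart after rescaling, with a ratio of 1.95. At 6 h in H929 it was lower with YKL with no overlap, at 1107, 1599 and 2069 FPKM, against 2326, 2311 and 2178 FPKM with DMSO. Rescaled, the 6 h groups overlapped, with 1154 in the highest YKL library and 1129 in the lowest DMSO library. In MM1S at 24 h it stood at 94.3, 86.8 and 56.2 FPKM with YKL and at 244, 289.9 and 511 FPKM with DMSO, with no overlap and a ratio of means of 0.227 (0.248 rescaled). VTRNA1-2, which shares both boxes with VTRNA1-3, was above the floor in 1 library, H929 DMSO 24 h replicate 2, at 114 FPKM.

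SNAR-C4, a near copy of SNAR-C3, had the highest values of the family, up to 25215 FPKM, and was present in 23 libraries. In H929 it stood at 2589, 6251 and 3945 FPKM with YKL and 2785, 4633 and 5292 FPKM with DMSO at 24 h, and at 14631, 25215 and 22805 FPKM with YKL and 17212, 9667 and 16666 FPKM with DMSO at 6 h. Like SNAR-C3 it was lower at 24 h than at 6 h in H929 YKL libraries, with a ratio of 0.204 (0.392 rescaled), and here the DMSO groups were apart too, with a ratio of 0.292 (0.304 rescaled). SNAR-E was present in all 12 H929 and 7 MM1S libraries and was higher with YKL than DMSO in H929 with no overlap at 24 h and at 6 h, with ratios of 1.80 and 1.64. Rescaled, the ratios were 3.16 and 1.90, and the 6 h groups overlapped. SNAR-H was present in 11 libraries, 10 of them of H929, SNAR-G2 in 4 and SNAR-D in 3, and the remaining 13 entries were at the floor in all 24 libraries. Entries for SNAR-A and SNAR-C genes other than SNAR-A11, SNAR-C3 and SNAR-C4 were all among these 13.

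Of 5 further RNA polymerase III transcripts with entries, RNU6-2 was at the floor in all 24 libraries and BCYRN1 above it in 1, at 2.44 FPKM. RPPH1, the RNA of RNase P, stood at 217, 125 and 223 FPKM in H929 YKL 24 h libraries and at 204, 212 and 186 FPKM in H929 DMSO 24 h libraries, which overlapped with a ratio of means of 0.937. After rescaling the groups were apart, at 202, 188 and 173 with YKL and 119.9, 110.4 and 115 with DMSO, a ratio of 1.63. RMRP, the RNA of RNase MRP, stood at 54.2, 69.8 and 97.4 FPKM in H929 YKL 24 h libraries, against 25.9, 42.0 and 33.6 FPKM in H929 DMSO 24 h libraries, with no overlap. RNU6ATAC, the U6-like RNA of the minor spliceosome, stood at 277, 415 and 539 FPKM in H929 YKL 24 h libraries and at 491, 243 and 388 FPKM in H929 DMSO 24 h libraries, which overlapped. None of these 3 was at the floor in any H929 library. RNY5, VTRNA1-3 and SNAR-A11, made by the same polymerase, were at the floor in most H929 libraries.

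**Figure D3:**
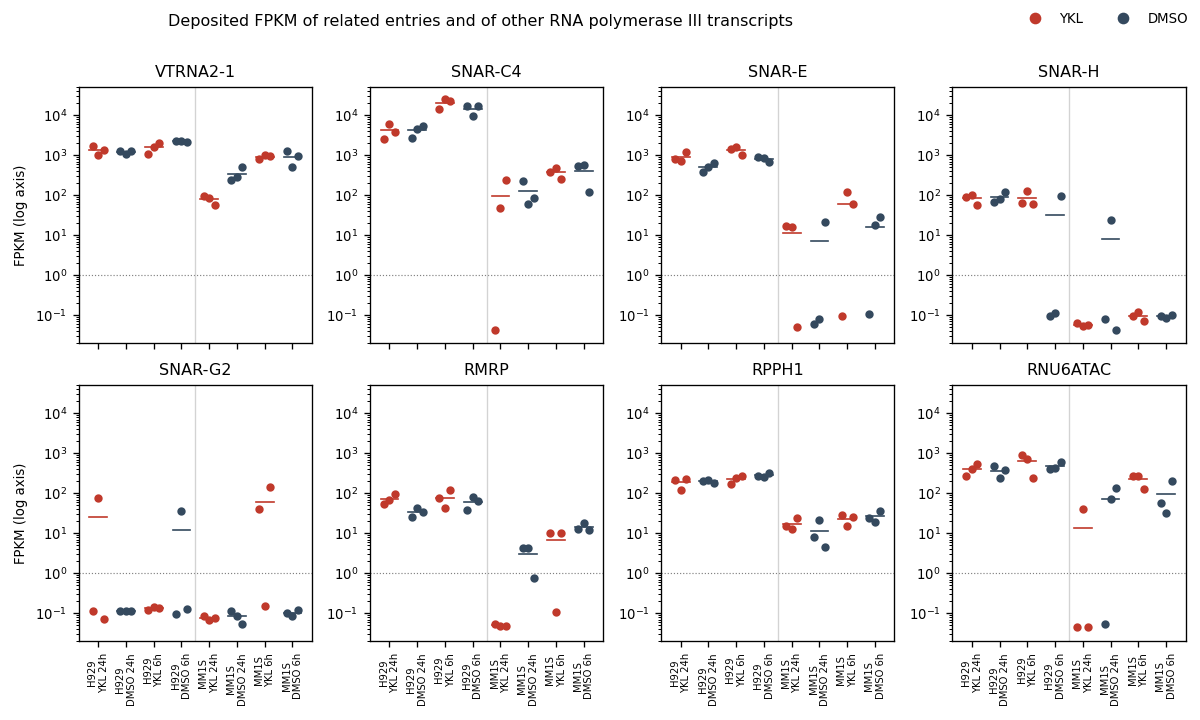
FPKM (log axis) of 5 related entries and 3 other RNA polymerase III transcripts in every library, by line, treatment and time, with YKL in red, DMSO in dark blue, a bar at the mean of the 3 libraries and a dotted line at 1 FPKM. VTRNA2-1 and RPPH1 are above the line in all 24 libraries, and SNAR-C4 spans 47.0 to 25215 FPKM in the 23 libraries where it is above it.

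Appearance in all 3 H929 YKL 24 h libraries and no H929 DMSO 24 h library was seen for 1 of 2 Y RNAs, 1 of 4 vault RNAs and 1 of 22 SNAR entries. It was seen for 1 of 255 box C/D and 0 of 106 box H/ACA small nucleolar RNAs, which guide RNA modification, for 0 of 24 scaRNAs and for 1 of 1823 microRNA entries. Over all 26249 gene entries it was seen for 66 (0.251%), and the reverse, loss from all 3 YKL libraries, for 224 (0.853%). The RNAs were picked from this contrast, so the first 3 counts support nothing.

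Genes whose values ran most like those of an RNA over the 24 libraries were sought for the 4 RNAs present in at least 6 libraries. For SNAR-G1 they were FN3KRP, BTG3 and C12orf75, with Pearson correlations of log2(FPKM + 1) of 0.947, 0.932 and 0.932. SNAR-I ran most like ADGRE5, MAGEA4 and UBASH3B (0.991, 0.990 and 0.990), SNAR-C3 most like LOC254896, SCARNA14 and IER5L (0.912, 0.908 and 0.908), and VTRNA1-1 most like S100A4, MLC1 and PHLDA2 (0.833, 0.832 and 0.831). FN3KRP was the 1 of these 12 genes still among the 3 most like its RNA after rescaling (0.930), and by Spearman's rho none was. For SNAR-I, ADGRE5, MAGEA4 and UBASH3B then ranked 2961, 4803 and 1644. All these points share the difference between the lines and the scale of each library. SNAR-C3 and SNAR-I, for example, correlated at 0.861 over 24 libraries, but at -0.165 over the 12 of H929 and 0.190 over the 12 of MM1S.

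Genes of the RNA polymerase III machinery, a list also chosen with earlier results of these data known, mostly fell as deposited in H929 with YKL at 24 h. Of 37 genes for subunits and initiation factors, all 37 passed the filter, and 30 fell and 0 rose (limma, Benjamini-Hochberg adjusted p under 0.05, where 35.4% of all genes tested were lower and 2.67% higher). After rescaling 18 fell and 1 rose (background 12.5% lower and 20.8% higher). Their median log2 change was -1.19, beside -0.46 over all genes tested. POLR3G, a subunit of the polymerase, fell to 2.75 ± 1.07 FPKM with YKL, against 15.4 ± 2.15 FPKM with DMSO (SD, n = 3 each, limma log2 change -2.17, adjusted p = 1.71e-06). POLR3GL, another gene of the list, stood at 104 ± 35.6 FPKM with YKL and 97.1 ± 17.7 FPKM with DMSO (limma log2 change 0.05, adjusted p = 0.906). It was the gene that rose after rescaling (limma log2 change 0.88, adjusted p = 0.000204). POLR2H, a subunit shared by all 3 nuclear RNA polymerases, fell to 39.98 ± 10.5 FPKM, against 193 ± 35.1 FPKM with DMSO. GTF3A, the TFIIIA factor of 5S rRNA genes, fell to 32.5 ± 9.68 FPKM, against 127 ± 3.86 FPKM with DMSO. POLR3A, the largest subunit, had a log2 change of -1.14 ± 0.26 (SE, limma adjusted p = 0.00171), and MAF1, a repressor of the polymerase, one of -1.21 ± 0.30 (adjusted p = 0.00314, and 0.0532 rescaled, where it did not pass). Whether the levels of these genes bear on RNY5, VTRNA1-3 and SNAR-A11, which were above the floor in the same YKL libraries, was not tested.

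At 6 h in H929, POLR1C, a subunit shared with RNA polymerase I, was the 1 of 37 that fell, to 32.6 ± 5.49 FPKM with YKL, against 84.5 ± 19.1 FPKM with DMSO (limma log2 change -1.34, adjusted p = 0.0187). The background was 1.16% lower, 0 rose, and 0 and 9 had an unadjusted p under 0.05 upward and downward. After rescaling 3 fell and 0 rose (background 4.19% and 5.1%). POLR1C did not pass without DMSO replicate 2 or 3 or YKL replicate 1 or 3 (limma adjusted p 0.103, 0.0851, 0.0783 and 0.0511), nor with the 2 groups fitted alone (0.0554). In MM1S at 24 h, POLR3K and POLR2H fell (2 of 37, background 6.77%, and 0 rose). POLR3K stood at 44.1 ± 13.9 FPKM with YKL, against 132 ± 55.8 FPKM with DMSO. Without DMSO replicate 1 or YKL replicate 1 it did not pass (limma adjusted p 0.0505 and 0.0594), nor did POLR2H without DMSO replicate 2 or YKL replicate 1 or 2 (0.0604, 0.0528 and 0.0653) or with the 2 groups fitted alone (0.138). The count was 8 without DMSO replicate 3, and 6 fell after rescaling (background 13.3% lower and 14.4% higher).

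In MM1S at 6 h, POLR3B, POLR3D and SNAPC2 fell (3 of 37, background 10.0%, and 0 rose), the last, a subunit of SNAPc, to 6.08 ± 1.68 FPKM, against 16.7 ± 5.63 FPKM with DMSO. POLR3B and POLR3D no longer passed whichever of the 6 libraries was left out (limma adjusted p 0.0553 to 0.133 and 0.0543 to 0.112), and SNAPC2 not without DMSO replicate 1 or 2 or YKL replicate 1 (0.0853, 0.0692 and 0.0663). With no filter on low values POLR3B and POLR3D did not pass either (0.0859 and 0.0556). After rescaling 2 fell and 1 rose (background 7.22% and 8.25%). Differences between the lines and times were not tested.

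Of 25 genes for proteins that bind, process or carry these RNAs, 22 passed the filter, and 16 fell and 1 rose in H929 at 24 h (limma, background 35.4% and 2.67%). After rescaling 10 fell and 2 rose (background 12.5% lower and 20.8% higher). NCL, which encodes nucleolin, fell to 232 ± 72.0 FPKM with YKL, against 901 ± 72.9 FPKM with DMSO, and PTBP1, a splicing repressor, to 89.3 ± 31.96 FPKM, against 387 ± 31.5 FPKM with DMSO. TOE1, a 3′ exonuclease of small RNAs, fell to 4.17 ± 1.25 FPKM, against 16.9 ± 2.78 FPKM with DMSO. The La gene SSB fell to 50.3 ± 13.3 FPKM, against 117 ± 14.3 FPKM with DMSO.

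MVP, which encodes the major vault protein, was the gene that rose, to 16.7 ± 4.22 FPKM with YKL, against 9.47 ± 0.355 FPKM with DMSO (SD, n = 3 each, limma log2 change 0.73 ± 0.29 SE, adjusted p = 0.0481). Rescaled, its log2 change was 1.47 (limma adjusted p = 5.04e-07). The call on deposited values held without YKL replicate 2 and was lost without DMSO replicate 1, 2 or 3 or YKL replicate 1 or 3 (limma adjusted p 0.0839, 0.111, 0.0969, 0.103 and 0.151). It was also lost with a pseudocount of 0.1, with no filter, with the 2 groups fitted alone and without the libraries with uneven spike-ins (0.0592, 0.0946, 0.0831 and 0.0505). The Ro60 gene TROVE2 stood at 17.2 ± 4.81 FPKM with YKL and 28.4 ± 2.94 FPKM with DMSO. It fell as deposited (log2 change -0.72, adjusted p = 0.0385, limma), but rescaled its log2 change was 0.08 and it did not pass (adjusted p = 0.767). As deposited its call held without YKL replicate 3 and was lost without any other 1 of the 6 libraries (limma adjusted p 0.0524 to 0.216), with no filter (0.0691) and with the 2 groups fitted alone (0.0913).

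At 6 h in H929, 0 of the 22 passed in either direction by limma, and 4 had an unadjusted p under 0.05, all downward (background 1.16% lower and 1.03% higher). After rescaling 3 fell and 1, MVP, rose (limma log2 change 0.57, adjusted p = 0.0259), where the background was 4.19% lower and 5.1% higher. In MM1S, 5 fell and 0 rose at 24 h (background 6.77% and 0.684%), and 8 fell and 0 rose at 6 h (10.0% and 0.926%). Without 1 library the counts were 2 to 7 at 24 h, with 2 without DMSO replicate 2 or YKL replicate 1 or 2 and 3 without YKL replicate 3, and 2 to 5 at 6 h, whichever of the 6 libraries was left out. After rescaling 6 fell and 2 rose at 24 h (background 13.3% lower and 14.4% higher), and 7 fell and 2 rose at 6 h (7.22% and 8.25%). SRSF2, a splicing factor, fell at both times in MM1S, to 25.6 ± 4.96 FPKM with YKL at 24 h, against 75.7 ± 37.0 FPKM with DMSO, and to 53.3 ± 4.49 FPKM with YKL at 6 h, against 149 ± 18.1 FPKM with DMSO. Its 24 h call was lost with the 2 groups fitted alone (limma adjusted p = 0.0531). MVP in MM1S had log2 changes of 0.38 at 24 h and 0.10 at 6 h, which did not pass (limma adjusted p = 0.551 and 0.873; 6 h without DMSO replicate 3 or YKL replicate 1 gave -0.13 and -0.05), and rose after rescaling at both times (0.68 and 0.55).

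**Figure D4:**
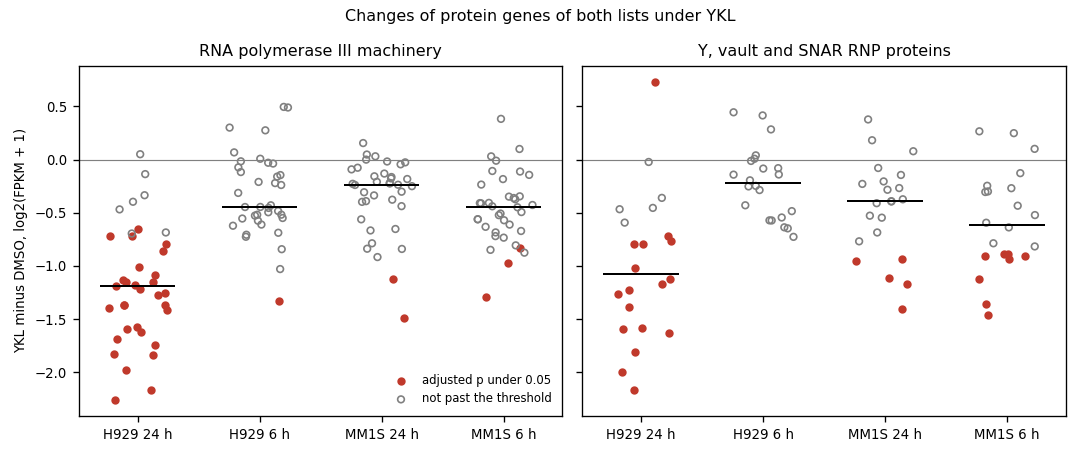
Log2 change with YKL minus DMSO, on log2(FPKM + 1), of the 37 machinery genes and the 22 RNP protein genes tested, in each line at each time. Each point is 1 gene, filled in red where limma's adjusted p was under 0.05, and the black bars are medians, which lie at -1.19 and -1.07 in H929 at 24 h.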

How the data were processed

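H929 and MM1S cells were lysed and their RNA made into QuantSeq 3′ libraries, per the labels' protocols. The submitters' processing notes name HISAT2, Cuffnorm and hg19 without versions. Per library, the authors deposited FPKM values for 26341 entries, of which 92 are spike-ins. Their scaling is not given in the sources used here and the sequencing depth is unknown, so no counting interval is printed. Groups came from the labels. The 12418 genes that reached 1 FPKM in 3 or more libraries were tested on log2(FPKM + 1), which understates changes of low genes, by limma-trend (limma 3.58.1, R 4.3.3, two-sided), in 1 fit of 8 group means that was first tested on simulated data. Benjamini-Hochberg adjustment ran over all genes tested, at a threshold of 0.05. Rescaling used median-of-ratios factors over 6014 genes whose geometric mean reached 5 FPKM. The RNAs, both protein lists and all rules were chosen with earlier results of these data known. Named genes were the 10 RNAs, relatives present in at least 3 libraries, the fixed protein genes POLR3A, MAF1, TROVE2, SSB and MVP (a further one is not reported here), the 3 genes of smallest p per list and comparison, and the 3 genes most correlated with an RNA. VTRNA1-2, RNU6-2, BCYRN1, POLR3GL, B3GALT4, LINC01233, LMF1 and RTN1, outside this rule, were named after their values were seen. Alternatives were another pseudocount, no filter, rescaling, 2 groups alone, the replicate number as a block, and libraries left out. No library pair was identical, and 0 per-sample columns were unused.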

Additional observations from a re-analysis of the deposited data

Results flagged for a closer look

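RMRP, the RNA of RNase MRP, was the 1 result that met a rule for a closer look: the samples of both lines moved apart in opposite directions at 24 h. It stood at 54.2, 69.8 and 97.4 FPKM in H929 YKL libraries, against 25.9, 42.0 and 33.6 FPKM in H929 DMSO libraries, a difference of 1.088 on log2(FPKM + 1). In MM1S it was at the floor in the 3 YKL libraries, against 4.37, 4.23 and 0.753 FPKM in DMSO libraries, a difference of -1.802. The difference between the lines was not tested. On rescaled values the H929 libraries were still apart, at 50.5 to 105 with YKL and 15.2 to 21.9 with DMSO.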

How the results depend on the processing

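The libraries in which each of the 8 RNAs lay above the floor were the same at thresholds of 0.2, 1 and 5 FPKM and after rescaling. The empty range from 0.163 to 12.9 FPKM and factors of 0.361 to 2.02 left no other outcome, so nothing is read from this. Counts of called genes were free to move. Over all genes tested, H929 at 24 h gave 4728 calls and 2844 (without YKL replicate 2) to 5259 without 1 library. H929 at 6 h gave 272, against 132 with a pseudocount of 0.1, 1153 rescaled, 64 with the 2 groups alone and 88 (without DMSO replicate 2) to 236 without 1 library. MM1S at 24 h gave 926, against 3446 rescaled, 492 with the 2 groups alone and 491 (without YKL replicate 1) to 1861 (without DMSO replicate 3) without 1 library. MM1S at 6 h gave 1360, against 832 with no filter, 2457 with the 2 groups alone, 673 without the libraries with uneven spike-ins and 536 (without DMSO replicate 1) to 1003 without 1 library. Of the 37 machinery genes, the calls in H929 at 24 h were 30, 19 rescaled and 23 to 30 without 1 library. In H929 at 6 h they were 1, 3 rescaled, 0 with the 2 groups alone and 0 to 1 without 1 library. In MM1S at 24 h they were 2, 4 with a pseudocount of 0.1, 6 rescaled, 1 with the 2 groups alone, 1 without uneven spike-ins and 0 to 8 without 1 library. In MM1S at 6 h they were 3, 1 with no filter, 9 with the 2 groups alone, 1 without uneven spike-ins and 0 to 1 without 1 library. Of the RNP protein genes, the calls in H929 at 24 h were 17 and 12 to 17 without 1 library, and in H929 at 6 h 0, 4 rescaled and 0 without any 1 library. In MM1S at 24 h they were 5, 3 with no filter, 8 rescaled, 0 with the 2 groups alone and 2 to 7 without 1 library. In MM1S at 6 h they were 8, 4 with no filter, 4 without uneven spike-ins and 2 to 5 without 1 library. The cause of these shifts was not tested.

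Log2 changes turned in sign for TROVE2 in H929 at 24 h, which passed as deposited (0.07714 rescaled), and for the following genes, which did not pass as deposited. In MM1S at 24 h, POLR3A gave 0.1312 rescaled and -0.2968 to 0.1081 without 1 library, MAF1 0.02725 rescaled and -0.4856 to 0.2237, and TROVE2 -0.1708 without uneven spike-ins and -0.1708 to 0.4035 without 1 library. In MM1S at 6 h, MAF1 gave 0.007685 rescaled, and MVP -0.1288 to 0.2406 without 1 library.

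The labels number the replicates 1 to 3 in every group. Same-numbered libraries did not deviate together: of 12 pairs, 1 had a correlation over 0.1, with a range of -0.11 to 0.18. With the replicate number as a block, RNP protein calls were 3 in MM1S at 24 h and 5 at 6 h, the other counts of calls stayed within 1.5 times, and MVP in H929 at 24 h and POLR3B in MM1S at 6 h did not pass (limma adjusted p 0.0621 and 0.0529).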

Other observations

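Fewer box H/ACA small nucleolar RNAs, which guide pseudouridylation, were listed with YKL than with DMSO in 3 of 4 comparisons without overlap. Of 106 entries, 49 to 54 were at or above 1 FPKM in H929 YKL 24 h libraries and 59 to 68 in H929 DMSO 24 h libraries. At 6 h the H929 ranges were 43 to 52 with YKL and 60 to 66 with DMSO. In MM1S they were 19 to 30 with YKL and 20 to 46 with DMSO at 24 h, which overlapped, and 23 to 38 with YKL and 43 to 49 with DMSO at 6 h. Box C/D RNAs, which guide ribose methylation, numbered 20 to 28 of 255 with YKL and 18 to 28 with DMSO in H929 at 24 h, which overlapped, and 13 to 23 with YKL and 24 to 29 with DMSO in MM1S at 6 h, which did not. In H929 at 6 h they numbered 21 to 26 with YKL and 24 to 31 with DMSO, and in MM1S at 24 h 17 to 25 with YKL and 11 to 26 with DMSO. In H929 at 24 h, scaRNAs numbered 17 to 19 of 24 with YKL and 19 to 20 with DMSO. Over all 26249 gene entries, 9334 to 10788 were at or above 1 FPKM in H929 YKL 24 h libraries and 10577 to 10832 in H929 DMSO 24 h libraries. At 6 h in H929 these were 10327 to 10843 with YKL and 10031 to 10581 with DMSO. In MM1S they were 8655 to 8823 with YKL and 7958 to 9941 with DMSO at 24 h, and 9348 to 10310 with YKL and 9952 to 10711 with DMSO at 6 h. These counts were not tested.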
